A study of Caenorhabditis elegans with 2 samples.

Results

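The *ceh* and *hlh* genes of *Caenorhabditis elegans* encode homeobox and basic helix-loop-helix (bHLH) transcription factors. All protein-coding genes with a name starting in ceh- or hlh- were taken, except 1 that the rule leaves out. This gave 87 genes, 62 *ceh* and 25 *hlh*, of 19973 protein-coding genes on the nuclear chromosomes. The question was whether EGL-18, a GATA-type transcription factor, has chromatin immunoprecipitation (ChIP-seq) peaks at these genes. Peaks came from whole young adults of strain RW12252, whose *egl-18* gene on chromosome IV carries the CRISPR insertion st12252[egl-18::TY1::EGFP::3xFLAG]. The worms were grown for 63 h from larvae synchronised by bleaching and starvation, and tagged protein was precipitated with an antibody against green fluorescent protein. There was 1 group with 2 samples, labelled biological replicates 1 and 2. Both carry the tag, both are the same strain, and no untagged or input library was analysed here. Because whole animals were used, a peak does not show which cells it comes from, and a site bound in few cells cannot be told apart from a site bound weakly in many.

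Homeodomain and bHLH proteins bind short DNA motifs and set cell fates. bHLH proteins bind as dimers, often with an E protein as common partner, and many homeodomain proteins bind with a cofactor of the PBC class. EGL-18 is best known for keeping the seam cells of the larval epidermis in a progenitor state and for its part in vulval development. GATA factors recognise a site written WGATAR, in which the first letter is A or T and the last is A or G. The forms searched, on both strands, were AGATAA with its variant AGATAG, as well as TGATAA with its variant TGATAG.

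The authors deposited ranked lists of all peaks with an irreproducible discovery rate (IDR), which measures how alike the rank of a peak is between a pair of inputs, and shorter thresholded lists. A combined ranked list made from both replicates held 117695 peaks, and the ranked lists of replicates 1 and 2 held 64911 and 54253. The combined thresholded list held 699 peaks. The deposited text does not say which pair of inputs the IDR of each combined list compares, so a high score there does not by itself mean that replicates 1 and 2 agreed. Peak height ("signal") is the value the authors' peak caller gave, on a scale that is not stated, and the number of reads behind it is unknown. It is used here to rank peaks within a list. The score is 1000 at most, 540 at an IDR of 0.05 and 830 at an IDR of 0.01. A promoter summit lay between 1000 bp upstream and 200 bp downstream of a start of a coding transcript, and the wider gene neighbourhood was the gene body with 5000 bp upstream. The promoter signal of a gene in a list is that of its highest promoter summit in that list. Promoter signals of replicates 1 and 2 were not matched to the combined-list summit. They can come from another summit of the same gene, and places given are those of the combined-list summit.

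No *ceh* or *hlh* gene had a promoter summit in the combined thresholded list. That is 0 of 87 genes, which allows a share of up to 3.45% by the rule of 3 genes for a count of 0, and 1.87% of all coding genes had such a summit. At that share, 1.63 of 87 genes would have one, and the exact 95% interval, which reaches somewhat higher than that rule (0 to 4.15%), includes the share of coding genes. In the wider neighbourhood 5 genes had a thresholded summit, which were *ceh-21*, *ceh-41*, *hlh-6*, *hlh-11* and *hlh-27*. This is 5.75% of the 87 (95% interval 1.89 to 12.9), beside 5.47% of coding genes. Intervals are exact Clopper-Pearson intervals and cover only the number of genes counted. They describe these lists only, since neighbouring genes can share a peak.

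**Figure D1:**
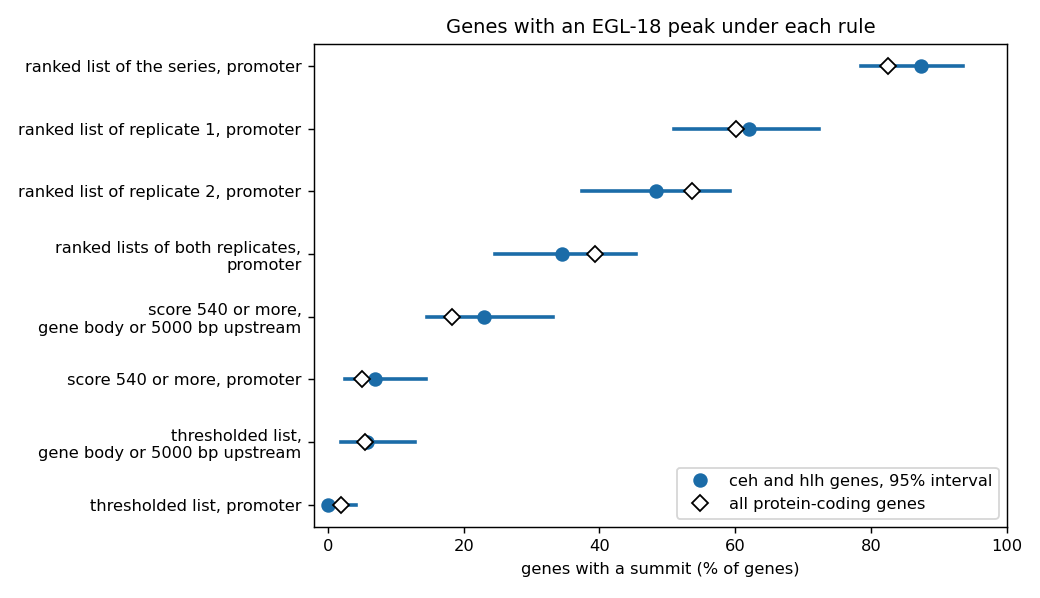
Share of the 87 *ceh* and *hlh* genes with a summit under each rule (filled circles, with exact 95% intervals) and share of all 19973 protein-coding genes (open diamonds), in percent of genes. The diamond lies inside the interval under each rule drawn, from 0% beside 1.87% for thresholded promoter summits to 87.4% beside 82.5% for any ranked promoter summit.

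The thresholded peaks in the neighbourhood of the 5 genes are printed here because no peak of the combined list near a *ceh* or *hlh* gene passed the threshold besides them. Sequences are the + strand of the RefSeq copy of assembly WBcel235 (ce11), in lower case. Capitals mark WGATAR sites on either strand, except in the first sequence, which has none and where capitals mark TTAGGC or its reverse complement GCCTAA. The first lies in an intron of *ceh-21* (chrX:1850569-1850844), the next in an exon of *dnj-20* upstream of *hlh-6* (chrII:9617586-9617861). A pair of peaks upstream of *hlh-27* follows (chrII:5543556-5543641 and chrII:5544191-5544466), and the last lies between genes upstream of *hlh-11* (chrIII:9617001-9617276).
ceh-21 and ceh-41 peak: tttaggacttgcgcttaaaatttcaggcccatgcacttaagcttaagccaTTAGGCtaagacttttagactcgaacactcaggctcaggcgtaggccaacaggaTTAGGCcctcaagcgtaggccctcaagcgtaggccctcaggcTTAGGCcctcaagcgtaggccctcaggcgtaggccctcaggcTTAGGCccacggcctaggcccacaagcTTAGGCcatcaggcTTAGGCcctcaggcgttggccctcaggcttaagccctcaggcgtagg
hlh-6 peak: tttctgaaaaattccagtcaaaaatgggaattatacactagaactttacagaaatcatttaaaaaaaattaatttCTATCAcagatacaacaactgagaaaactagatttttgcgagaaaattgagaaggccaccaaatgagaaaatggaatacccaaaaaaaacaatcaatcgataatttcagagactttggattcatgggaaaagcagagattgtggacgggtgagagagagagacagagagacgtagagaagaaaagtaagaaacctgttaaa
hlh-27 peak, stronger: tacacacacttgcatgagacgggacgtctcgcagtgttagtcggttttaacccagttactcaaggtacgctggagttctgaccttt
hlh-27 peak, weaker: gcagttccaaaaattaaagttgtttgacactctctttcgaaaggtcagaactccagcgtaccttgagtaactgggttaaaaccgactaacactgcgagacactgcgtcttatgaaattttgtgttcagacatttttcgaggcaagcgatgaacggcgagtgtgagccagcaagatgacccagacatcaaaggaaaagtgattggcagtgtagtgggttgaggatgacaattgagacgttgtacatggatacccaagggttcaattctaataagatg
hlh-11 peak: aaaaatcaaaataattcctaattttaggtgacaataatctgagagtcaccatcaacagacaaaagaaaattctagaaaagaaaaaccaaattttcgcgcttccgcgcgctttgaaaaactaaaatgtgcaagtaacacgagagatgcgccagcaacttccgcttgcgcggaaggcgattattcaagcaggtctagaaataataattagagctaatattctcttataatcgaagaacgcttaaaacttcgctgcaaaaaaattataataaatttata

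The *ceh-21* peak counts for a pair of genes, because *ceh-41* lies next to *ceh-21* on the same strand and the summit is 2032 bp upstream of the start of *ceh-41* and 2029 bp downstream of that of *ceh-21*. Both encode ONECUT factors, homeodomain proteins with a cut domain. The signal was 74.56 in the combined list, 40.37 in replicate 1 and 36.16 in replicate 2, with scores of 1000, 560 and 303. Thus it passed the strict threshold in the combined list and in neither replicate's own list. The peak is a tandem repeat: shifted by 14 bp, 68.3% of its bases match themselves. Of the 699 thresholded peaks, 39 (5.58%) matched themselves at 60% or more under a shift of 3 to 60 bp. The 6 copies of TTAGGC or GCCTAA, the hexamer of the worm's telomere repeat, are also uncommon, since 4 of the 699 peaks (0.572%) held 3 or more. Every 31-base word of the peak occurs only once in the genome, although the peak is repetitive.

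The strongest peak near any of the 87 genes was that 3403 bp upstream of *hlh-27*, a member of the REF-1 family, whose bHLH proteins include targets of Notch signalling in the embryo. Its signal was 146.79 in the combined list, rank 79 of 699, and 71.70 and 87.07 in replicates 1 and 2. It scored 1000 in all 3 lists and is in both replicates' thresholded lists, the only such peak near these genes. The summit lies within the spliced leader RNA gene *sls-2.2*, which makes the short leader that is joined to many messenger RNAs of operons, and the nearest coding start is that of the insulin-like gene *ins-13*, 1248 bp away. The weaker *hlh-27* peak, with a signal of 65.69, rank 630 and a score of 984, lies at *sls-2.3*, 4116 bp upstream of *hlh-27*. It stood at 40.37 in replicate 1 and 35.55 in replicate 2, with scores of 385 and 41. The printed pair shares a run of 61 bases in opposite orientation. Of the 31-base words of the stronger peak 44.6% occur once in the genome, and of the weaker 72.8%, so part of this sequence also stands elsewhere. By contrast, the promoter of *hlh-27* itself had a signal of only 4.69, the lowest of the genes with a promoter summit. Summits at transfer RNA, small nucleolar RNA and small nuclear RNA genes, spliced leader genes included, were also left out as an alternative. With that, 4 of the 5 genes remained, or 4.6% of the 87. The share of coding genes was not counted under this alternative.

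The *hlh-6* peak lay 2896 bp upstream of *hlh-6*, which encodes an achaete-scute-like factor of the pharyngeal glands, but only 599 bp from the start of *hal-3*. Its signal was 72.06 in the combined list, rank 531, with 33.13 in replicate 1 and 41.14 in replicate 2. The replicate scores of 164 and 733 were far apart, although the heights were close. It is the only one of these peaks that holds a WGATAR site, with 1. The *hlh-11* peak lay 2572 bp upstream of *hlh-11*, which encodes a factor like human AP-4, and 669 bp from the start of *hcp-3*, the gene of the centromeric histone. It had a signal of 80.81 in the combined list, rank 361, with 45.95 and 34.33 in replicates 1 and 2, and scores of 560 and 171 there. Of the 5 genes only *ceh-21* had the coding start nearest to its thresholded summit.

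**Figure D2:**
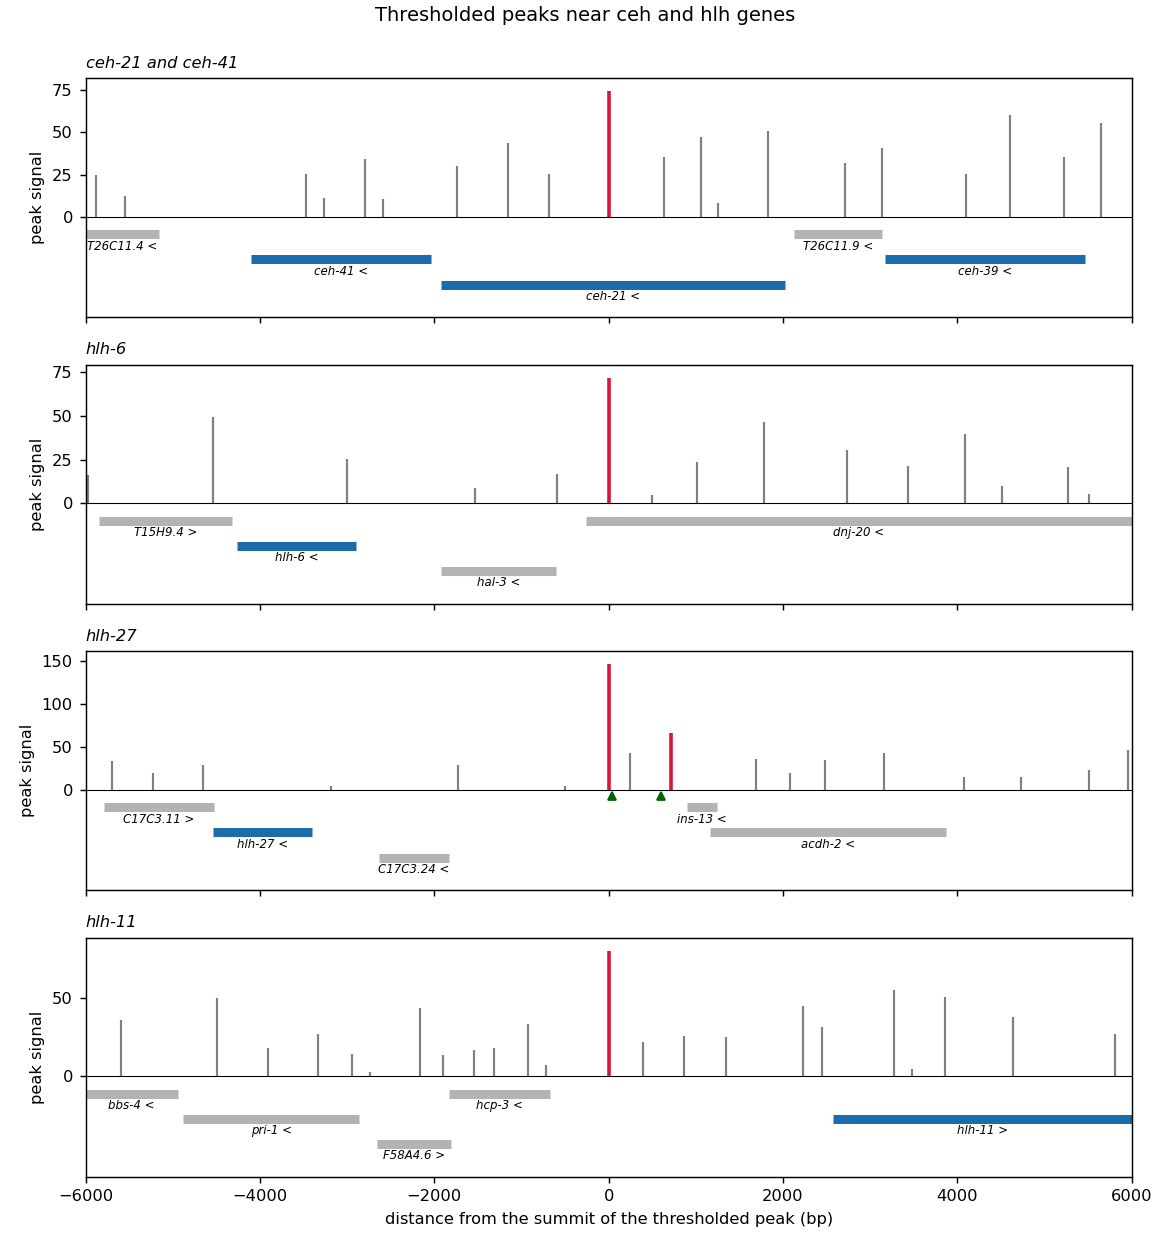
Peak signal (authors' units) against distance from the summit of the thresholded peak, 6000 bp to either side, at the 4 loci where a thresholded summit of the combined list lies in the neighbourhood of a *ceh* or *hlh* gene. Red lines are thresholded peaks and grey lines other ranked peaks. Blue bars are *ceh* and *hlh* genes, grey bars other coding genes with their direction, and green triangles spliced leader RNA genes. The thresholded summits stand away from the starts of the *ceh* and *hlh* genes, at 2029 to 4116 bp.

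The other thresholded lists changed which genes were near a peak. The conservative list of both replicates held 597 peaks and added *ceh-5*, giving 6 genes (6.90%, 2.57 to 14.4) beside 4.84% of coding genes. The *ceh-5* peak (I:9722305-9722580) had a signal of 79.97, with 37.23 and 41.12 in the replicates, and lay 4726 bp upstream of *ceh-5* and 273 bp from the start of *eat-16*. Its score was 951 in the conservative list but 121 in the combined ranked list, so the call depends on the list. Replicate 1 alone gave 2 genes (2.3%, 0.280 to 8.06), *hlh-27* and *ceh-100*, beside 1.59% of coding genes. Replicate 2 alone gave *hlh-27* (1.15%, 0.0291 to 6.24), beside 1.89%. The *ceh-100* peak (chrII:12606396-12606645), in an exon of the lipase-like gene *lips-15*, had a signal of 53.6 and a score of 925 in replicate 1, no matching peak in replicate 2, and a score of 501 in the combined ranked list. A further 101 peaks of the combined ranked list score 830 or more without being in the thresholded list, and 0 of them lie in the neighbourhood of a *ceh* or *hlh* gene.

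Below the strict threshold most of the genes had some promoter summit, as most coding genes do. In the combined ranked list this held for 76 of 87 (87.4%, 78.5 to 93.5) beside 82.5% of coding genes. The median of the highest promoter signal, with genes without a summit at 0, was 27.37 over the 87 genes (interquartile range 19.79 to 34.49) and 26.80 over coding genes (14.27 to 37.75). Of the 87, 48 were above the coding gene median (55.2%, 44.1 to 65.9; background 50.0%). The genes thus lay around the middle of the genome's range, with an upper quartile below that of coding genes. At a score of 540 or more, 6 genes had a promoter summit (6.90%, 2.57 to 14.4) beside 5.03% of coding genes. Even the strongest of all promoter peaks, that of *ceh-51* at 63.11, was higher than only 47 of the 699 thresholded peaks (6.72%), whose median was 81.62.

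**Figure D3:**
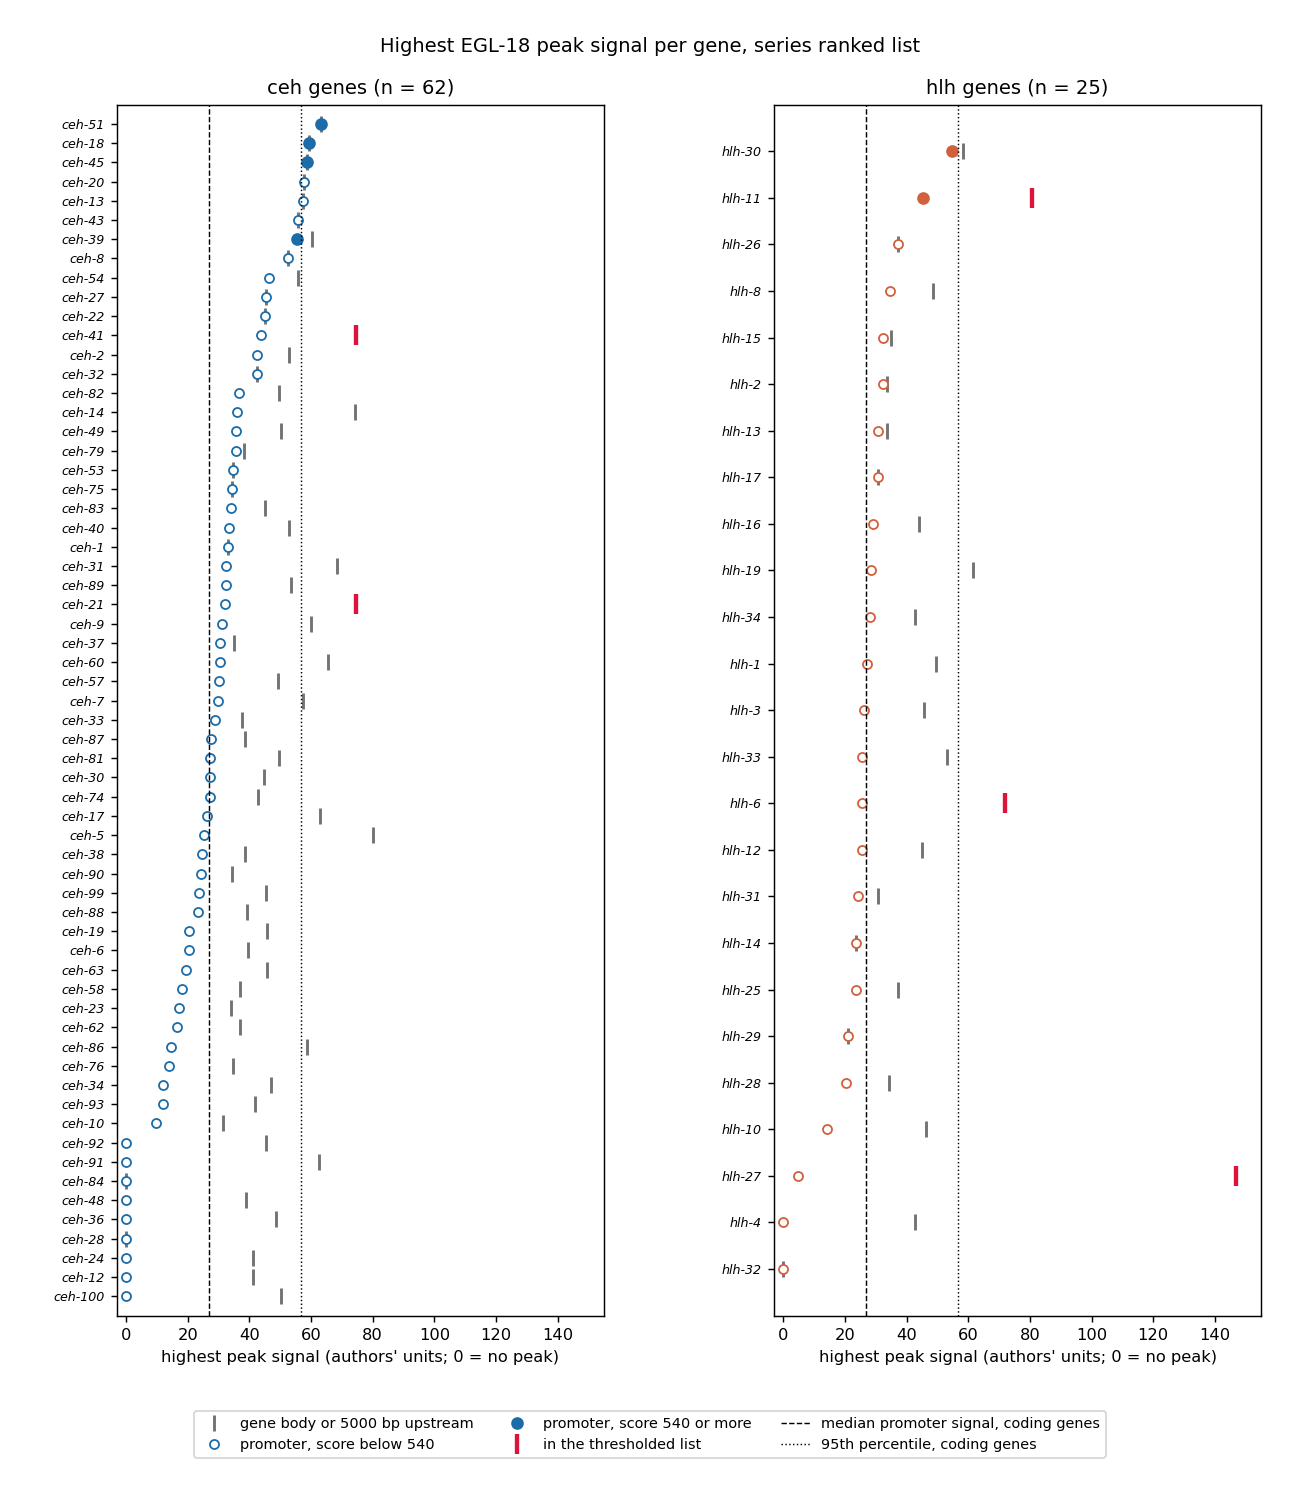
Highest peak signal (authors' units, 0 where there is no peak) of each *ceh* gene (left) and *hlh* gene (right) in the combined ranked list. Circles are promoter summits, filled at a score of 540 or more; ticks are the gene body with 5000 bp upstream, red where the peak is in the thresholded list. The dashed line is the coding gene median of 26.80 and the dotted line the 95th percentile of 56.68, which 5 circles pass (*ceh-51*, *ceh-18*, *ceh-45*, *ceh-20* and *ceh-13*).

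Windows of 151 bp around the summits of 1 *ceh* and 2 *hlh* genes at a score of 540 or more are printed to show what the sequence under the better promoter peaks looks like. Strand, build and capitals are as for the peaks above. They are from *ceh-18* (chrX:3858011-3858161), *hlh-30* (chrIV:4034916-4035066) and *hlh-11* (chrIII:9619290-9619440).
ceh-18 promoter summit: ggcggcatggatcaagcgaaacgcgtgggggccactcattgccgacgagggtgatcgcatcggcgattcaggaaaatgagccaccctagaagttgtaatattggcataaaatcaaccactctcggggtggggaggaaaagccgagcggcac
hlh-30 promoter summit: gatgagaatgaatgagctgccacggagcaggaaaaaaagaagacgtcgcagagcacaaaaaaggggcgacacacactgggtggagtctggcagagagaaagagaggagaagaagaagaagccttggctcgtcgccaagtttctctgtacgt
hlh-11 promoter summit: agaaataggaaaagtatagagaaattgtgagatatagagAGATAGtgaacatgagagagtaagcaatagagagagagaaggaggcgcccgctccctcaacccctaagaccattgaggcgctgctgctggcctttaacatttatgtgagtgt

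Among these 3 windows only that of *hlh-11* holds a WGATAR match. The windows of *ceh-51*, *ceh-45* and *ceh-39*, not printed, hold none, so *hlh-11* is the only one of the 6 genes at that score with a match. *ceh-51*, an NK-like gene of the embryonic mesoderm, had the highest promoter signal of the 87 genes, 63.11 in the combined list, 28.81 in replicate 1 and 32.98 in replicate 2, at a score of 586. The combined-list summit lies in an intron of *emb-4*, 554 bp upstream of the start of *ceh-51*. Shifted by 35 bp, 58.1% of the bases of this peak match themselves, beside a median of 34.5% over the 76 strongest promoter peaks of these genes. *ceh-18*, a POU gene of the gonadal sheath that restrains oocyte maturation, had 59.19 in the combined list, 28.84 and 30.05 in the replicates, and the highest score of the promoter peaks at 636. Both genes were high in both replicates, above 90.1% of coding genes in replicate 1 and above 94.9% or more in replicate 2.

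Next in height, after the paired-like gene *ceh-45* at 58.78, came 1 of the 3 PBC cofactor genes and 1 Hox gene. *ceh-13*, the labial-like anterior Hox gene, had a promoter signal of 57.41 in the combined list, 20.92 in replicate 1 and 31.77 in replicate 2. The combined-list summit was in its exon, 197 bp after the start. *ceh-20*, the Extradenticle-like PBC cofactor, had 57.72, 27.08 and 27.34, 754 bp upstream. Their scores of 486 and 506 were just under 540, and *ceh-45*, at 556, was just over it. *ceh-60*, the PBC gene that acts in intestinal yolk production, stood much lower, at 30.29 in the combined list and 18.37 in replicate 1, with no promoter summit in replicate 2. The third PBC gene, *ceh-40*, had 33.21, so all 3 were above the coding gene median and *ceh-20* stood apart from the other two. The Hox genes under other names were lower than *ceh-13*, with combined-list promoter signals from 9.72 (*egl-5*) and 18.07 (*lin-39*) to 36.76 (*mab-5*), and were added after their values were seen.

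*ceh-45*, a paired-like gene, had 58.78 in the combined list, in an exon 144 bp after a start (I:1129814-1130089). Its highest promoter signals in replicates 1 and 2 were similar, at 36.38 and 34.48, but were not matched to that summit. *ceh-43*, the Distal-less-like gene of the anterior epidermis and dopaminergic neurons, had 55.74, 22.3 and 33.02, at 985 bp upstream, near the edge of the promoter window. *ceh-39*, an ONECUT gene that takes part in counting X chromosomes, had 55.29, 35.02 and 18.1, with a score of 635. The last shows the spread between replicates: its height was above 96.1% of coding genes in replicate 1 and above 71.1% in replicate 2. *ceh-8*, a paired-like gene related to vertebrate Rax, had 52.4, with 22.87 and 20.41 in the replicates.

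*hlh-30*, the TFEB-like regulator of lysosome and autophagy genes, led the *hlh* genes with a promoter signal of 54.7, 36.63 in replicate 1 and 24.09 in replicate 2, at a score of 560. The gene has many transcript starts, and its windows held 11 promoter summits of the combined list, the strongest 40 bp upstream of a start. *hlh-11* had 45.35 in the combined list and 25.06 in replicate 1, but no promoter summit in replicate 2, although its score of 589 was the higher of the pair. The next *hlh* genes were *hlh-26* of the REF-1 family at 37.13, *hlh-8* at 34.44, *hlh-15* at 32.4 and *hlh-2* at 32.26. *hlh-8* encodes the Twist-like factor of the sex muscles and *hlh-2* the E protein that partners many bHLH factors. Of these 4, *hlh-15* (14.91 and 28.87) and *hlh-2* (18.28 and 16.95) had a promoter summit in both replicates, and *hlh-26* and *hlh-8* only in replicate 1, at 20.77 and 19.06. Genes with several starts have more promoter window in which to find a high summit. The window was 5547 bp for *hlh-30* and 3603 bp for *ceh-18*, but 1201 bp for *ceh-51*, *ceh-20* and *ceh-13*. The part of window length in the order of the genes was not tested.

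Regulators of muscle, the pharynx or the excretory cell did not share a level. *hlh-1*, the MyoD-like gene of body wall muscle, had a promoter signal of 27 in the combined list and 9.19 in replicate 1, with none in replicate 2, close to the coding gene median. *ceh-22*, the Nkx2-5-like gene of pharyngeal muscle, had 45.13 and 33.06, with none in replicate 2. *ceh-6*, a POU gene of the excretory cell, had 20.37 in the combined list and no promoter summit in either replicate. *ceh-34*, a sine oculis-like gene of pharyngeal neurons, had 11.82 and likewise none in the replicates.

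By class, the median promoter signal in the combined list was 29.27 over the 62 *ceh* genes and 26.17 over the 25 *hlh* genes. Of the *ceh* genes 36 (58.1%, 44.8 to 70.5) and of the *hlh* genes 12 (48%, 27.8 to 68.7) were above the coding gene median, with intervals that overlap widely and both hold the background of 50.0%. The medians were 31.04 over 15 NK-like genes, from *ceh-51* down to 3 genes without a summit, 32.42 over 8 paired-like genes (*ceh-45* to *ceh-36*), 33.87 over 6 cut genes (*ceh-39* to *ceh-48*), and 28.89 over 3 sine oculis-like genes (*ceh-32*, 42.48, to *ceh-34*). The 23 other *ceh* genes had a median of 23.25, with 9 above the coding gene median, *ceh-82* highest at 36.51. Among *hlh* genes, the achaete-scute-like proneural group had a median of 25.38 over 6 genes (*hlh-19*, 28.56, to *hlh-4*), the REF-1 family 21.09 over 5 and the Olig-like genes 26.57 over 4 (*hlh-17*, 30.63, to *hlh-32*). The 10 other *hlh* genes had 31.45, and 8 of them were above the coding gene median. None of the 6 achaete-scute-like and none of the 5 REF-1 genes had a promoter summit in both replicates, beside 39.3% of coding genes. Of the REF-1 promoter windows, those of *hlh-28* and *hlh-29* were 25.7% and 26.6% unique (share of 31-base words found once in the genome) and those of *hlh-25* and *hlh-27* 71.0% and 71.2%. These are groups of 3 to 23 genes, and no difference between them was tested.

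At the low end, 11 genes had no promoter summit in the combined ranked list, which were *ceh-12*, *ceh-24*, *ceh-28*, *ceh-36*, *ceh-48*, *ceh-84*, *ceh-91*, *ceh-92*, *ceh-100*, *hlh-4* and *hlh-32*. They include *ceh-36*, an Otx-like gene of the AWC and ASE sensory neurons, *ceh-12*, an HB9-like gene of motor neurons, and *ceh-28* of the M4 pharyngeal neuron. In replicate 2's own list *ceh-100* had a promoter signal of 24.44 and *ceh-92* 4.85, and the other 9 had none in either replicate. The share of 31-base words of the promoter window that occur once in the genome was 95.7% or more in all but *ceh-84* (58.7%). Promoters of coding genes without a summit fell below 50% in 9.22% of cases, and those of these 11 genes in 0. Among genes with a summit, the lowest 3 *ceh* genes were *ceh-10* (9.61), a gene of the AIY interneurons, *ceh-93* (11.81) and *ceh-34* (11.82). The lowest 3 *hlh* genes were *hlh-27* (4.69), *hlh-10* (14.13) and *hlh-28* (20.3). The windows of *hlh-28* and *hlh-29*, a pair of near-identical REF-1 genes, are largely not unique, as given above, and their signals of 20.3 and 21.09 are uncertain for that reason.

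The wider neighbourhood gave higher values but told less about the genes themselves. The median highest signal was 45.38 over the 87 genes and 44.73 over coding genes, and 20 genes (23.0%, 14.6 to 33.2) had a summit at a score of 540 or more, beside 18.3% of coding genes. The median distance to the next coding gene wholly upstream was 2415 bp, beside 1156 bp for coding genes. Overlapping genes were passed over, so this distance is not always open sequence. For *ceh-51* it was 14911 bp, although the promoter summit of that gene lies in an intron of *emb-4*. In 46 of the 84 genes with any summit in the neighbourhood (54.8%) the strongest summit was nearest to a start of that gene, beside 47.3% of coding genes. Just under the strict score were *ceh-14*, a LIM homeobox gene, with 74.34 and a score of 823 at 2003 bp upstream, and *ceh-31*, with 68.31 and 731 at 1936 bp upstream. *ceh-91*, without a promoter summit, had 62.62 and a score of 722 at 364 bp after its start. *ceh-60* reached a similar height, with 65.43 and 713, but that summit is at the far end of the gene, nearest to the start of *ets-4*. These values in *ceh-14* and *ceh-31* were picked out after they were seen, and other genes, such as *hlh-19* (61.51, score 720), scored close to *ceh-31*. *ceh-28*, *ceh-84* and *hlh-32* had no summit even in this wider window of the combined list.

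The replicates placed the genes only loosely in the same order. A promoter summit was present in replicate 1 for 54 genes (62.1%, 51 to 72.3; background 60.1%), in replicate 2 for 42 (48.3%, 37.4 to 59.2; background 53.7%) and in both for 30 (34.5%, 24.6 to 45.4; background 39.3%). In neither replicate's list were 21 genes (24.1%, 15.6 to 34.5; background 25.5%). The summits of the replicates lay within 200 bp of each other in 23 genes (26.4%), beside 30.5% of coding genes. Across the 30 genes with a summit in both, the rank correlation of the heights (Spearman's rho) was 0.39, beside 0.32 over 7852 coding genes, and the correlation of their log2 values (Pearson's r) was 0.36, beside 0.39. The genes are not independent replicates, so no p is given. The *hlh* genes had fewer summits in replicate 2 than in replicate 1, with 8 (32%, 14.9 to 53.5) and 15 (60%, 38.7 to 78.9) of 25, and the *ceh* genes had 34 (54.8%) and 39 (62.9%) of 62. The interval of the *hlh* share in replicate 2 ends just below the coding gene share of 53.7%; it was 1 of many shares looked at and was not tested.

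**Figure D4:**
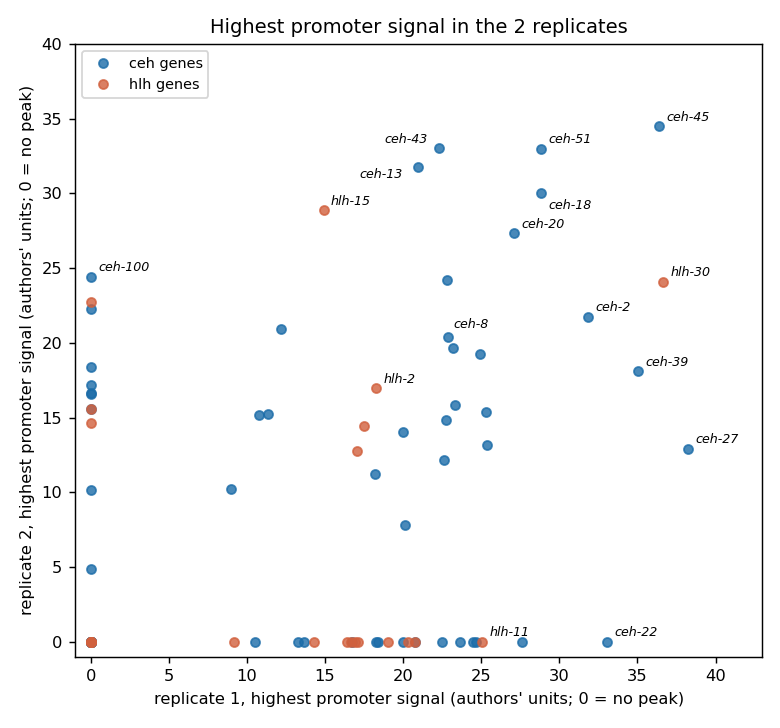
Highest promoter signal of each gene in replicate 2 against replicate 1 (authors' units, 0 where there is no peak), *ceh* genes blue and *hlh* genes orange. The points on the axes are the 24 genes with a summit only in replicate 1 and the 12 with one only in replicate 2, and 21 genes lie at the origin. *ceh-45* (36.38 and 34.48) stands at the upper right, and *ceh-22* (33.06 in replicate 1) has no counterpart in replicate 2.

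**Figure D5:**
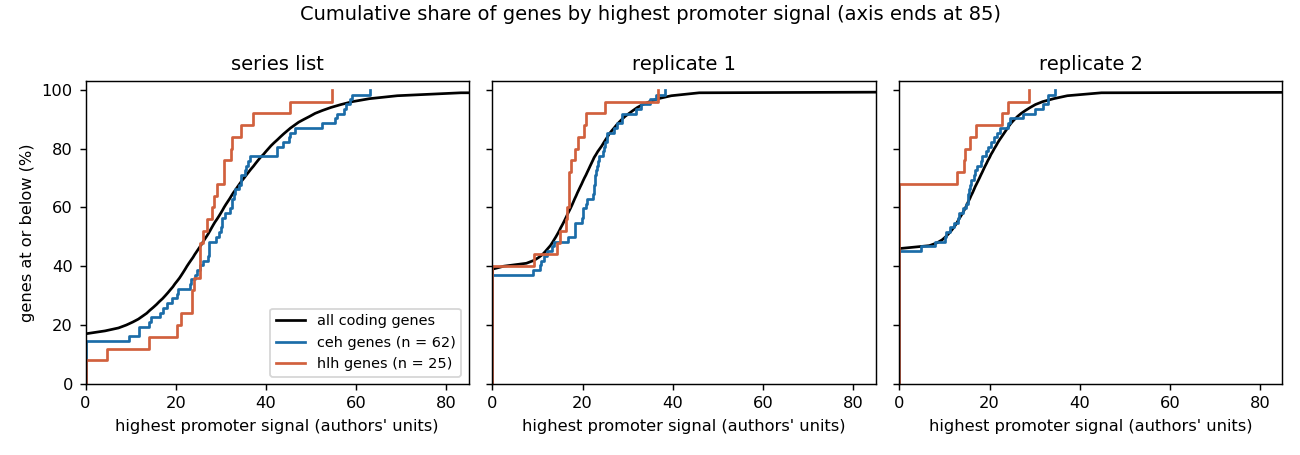
Cumulative share of genes (percent) at or below each highest promoter signal (authors' units) in the combined list and in the ranked lists of the replicates, for all coding genes (black), *ceh* genes (blue) and *hlh* genes (orange). The *ceh* curve follows the black curve, with medians of 29.27 and 26.80 in the combined list, and the *hlh* curve ends lower, at 54.7. In replicate 2 the *hlh* curve starts at 68%, the share of genes with no summit there.

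Sites for GATA factors were about as common under these summits as elsewhere. Within 75 bp of the strongest promoter summit, 23 of 76 genes (30.3%, 20.2 to 41.9) had a WGATAR match, beside 26.7% of 16469 coding genes. For comparison, the hexamer CGCGCA (or its reverse complement TGCGCG) was present in 3 (3.95%) beside 4.18%. Over the whole promoter window, 84 of 87 genes (96.6%) held a WGATAR match, with a mean of 3.17, beside 93.3% and 3.10 for coding genes. Nearly every promoter of either set thus held a match. Higher peaks sat in sequence richer in G and C. Spearman's rho between signal and GC content of the 151 bp was 0.55 across the 76 genes and 0.37 across coding genes. The 38 genes of higher signal had a median GC content of 43.7% and a WGATAR match in 9 (23.7%), and the 38 of lower signal 37.4% and 14 (36.8%). Split in the same way, coding genes had a median GC content of 41.7% and a match in 24.3% at higher signal, and 37.1% and 29.1% at lower signal. In the 16 genes of highest signal, a number chosen after the values were seen, GC content ranged from 38.4 to 60.3% (median 51.3) and 3 had a match. The 16 highest coding genes had 37.1 to 60.9% (median 47.4) and 2 matches. These 16 are a far smaller share of 16469 coding genes than of the 76, so the cut-offs are unlike and the values are not directly comparable. The part of GC content in peak height was not tested.

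Of the 76 strongest promoter summits, 6 (7.89%) also lay in the promoter window of another coding gene, beside 20.8% for coding genes. That difference was not tested, and the *ceh* and *hlh* genes have a longer median distance to the next coding gene wholly upstream, overlapping genes not counted. The 6 were those of *ceh-7*, *ceh-21*, *ceh-38*, *ceh-40*, *hlh-16* and *hlh-19*. The strongest summits lay at a median of 267.5 bp upstream of the nearest start of the gene, beside 351 bp for coding genes. The 87 genes are unevenly spread, with 24 (27.6%) on X, which holds 13.7% of coding genes. On X their median promoter signal was 31.39 and 17 of 24 were above the genome-wide coding gene median, beside 29.33 and 56.5% for all coding genes of X. On the autosomes the median was 26.17 beside 26.34, with 31 of 63 above the genome-wide median beside 49%.

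Homeobox genes under other names stood somewhat higher than the *ceh* genes. Their median promoter signal was 36.27 over 38 listed genes, and 28 (73.7%) were above the coding gene median. *unc-62*, which encodes the Meis-like cofactor of Hox and PBC proteins, was the only one with a thresholded promoter summit. Its highest promoter signal was 67.47 in the combined list, 36.89 in replicate 1 and 41.27 in replicate 2, at a score of 845. The highest signal was that of *pha-2*, a pharyngeal homeobox gene, with 69.15, 25.67 and 28.49 at a score of 652, and *lim-7*, of the gonadal sheath, had 59.74. These genes have a median of 9613 bp to the next coding gene wholly upstream, overlapping genes not counted. The list was drawn up with results of these data known, and the difference from the *ceh* genes was not tested. The 16 bHLH genes under other names had a median of 25.66, with 7 above the coding gene median, and were led by the hypoxia factor gene *hif-1* at 56.63, *mdl-1* at 45.38 and *aha-1* at 41.94. For comparison, the 269 nuclear hormone receptor genes had a median of 27.26 with 51.3% above the coding gene median, and the 220 *srh* chemoreceptor genes 21.23 with 36.4%.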

How the data were processed

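The members and lists were chosen with earlier results of these data known. Samples were 2 biological replicates in 1 group. Per the labels and the text deposited with the lists, peaks are on assembly ce11. Replicate lists derive from 1 replicate and combined lists from both. The aligner, peak caller and versions were not given in the sources used here. Peak height is the signal that the authors deposited, with no stated scale, and as no read counts are given the depth is unknown. In the deposited score, IDR is rescaled as -125 times its log2, capped at 1000, and 100% of ranked peaks lay within 1 of that value. The global IDR itself was deposited as −log10 and served for this check.

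Genes came from Ensembl release 115 and sequence from the RefSeq genome. Summits were assigned to genes, tested on simulated data, and shares given exact Clopper-Pearson 95% intervals. With 1 group there was no comparison between groups and no test over genes was made. Named genes were those with a thresholded summit nearby, the 8 *ceh* and 6 *hlh* genes highest in promoter signal, those at a score of 540 or more, the lowest 3 of each, those without a summit (up to 10 by rule, all 11 given), 10 chosen by role, the highest and lowest of each group, and the leading other homeobox and bHLH genes. *ceh-44*, listed as a cut gene, was not matched in the annotation. Counts of repeats, unique 31-base words and GC content by signal were added after seeing the data. The 42 alternatives changed the promoter window, neighbourhood, list, score, replicate or assignment. The 1 gene left out by the rule is not reported here. Tools were Python 3.11.15, scipy 1.17.1, pandas 2.3.3, matplotlib 3.10.9 and numpy 2.4.6.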

Additional observations from a re-analysis of the deposited data

How the results depend on the processing

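Of 42 alternative settings, 31 gave a count within 1.5-fold of the one reported. No gene had a thresholded promoter summit under any of 7 settings. The count above the coding gene median, taken anew in each setting, ranged from 38 (43.7%) to 57 (65.5%) over 8 settings, beside 48 (55.2%). It was 39 (44.8%) with either changed promoter window, so the share fell on both sides of 50.0%. Genes with a ranked promoter summit in both replicates went from 30 to 13 with a window of 500 bp upstream and 100 bp downstream, and to 55 with 2000 bp upstream. The 5 genes with a thresholded summit nearby became 1 with 2000 bp upstream and 1 with the gene body alone, since the other summits lie farther upstream. The 6 genes at a score of 540 or more became 3 in the other combined ranked list and 0 at a score of 830. Replaced by a single replicate's lists (the other left out), thresholded summits nearby were found for 1 to 2 genes, promoter summits at a score of 540 or more for 0 to 0, and ranked promoter summits for 42 to 54, beside 76. Shares of coding genes were not counted for the changed windows, the other combined ranked list, a score of 830, or a score of 540 in a single replicate. Those counts therefore have no background beside them. No cause of these changes was tested. No paired analysis was possible because there is only 1 group. Depth and a control are not known here, so a gene without a summit is not shown to be unbound.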
